A study of Sus scrofa with 6 samples.

Results

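The genes described here are those of the extracellular matrix (ECM) and its receptors. They were the rows of the deposited gene table whose KEGG annotation names the pathway ECM-receptor interaction. This held for 74 of 24358 genes, namely 12 collagens, 12 laminins, 18 other matrix glycoproteins and proteoglycans, 19 integrin subunits and 13 other receptors. Collagens, laminins and fibronectin are secreted and assembled into fibrils and basement membranes. Integrins are pairs of an alpha and a beta subunit that bind these proteins and link them to the actin skeleton through adaptors such as talin and integrin-linked kinase. In the mouse blastocyst, the primitive endoderm and the trophectoderm lay down basement membranes of laminin and type IV collagen, and embryos without integrin beta 1 are lost around implantation.

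Single-embryo RNA sequencing was performed in 3 control and 3 *CARM1* knockdown (KD) pig embryos at day 5, each library being made from 1 whole embryo. Control embryos were not injected. The *CARM1* KD embryos came from MII oocytes that had received about 10 pl of 50 μM siRNA designed against the coding region of *CARM1*, which encodes a histone arginine methyltransferase. The labels call all 6 embryos blastocysts, and the sources used here leave unsaid whether they were parthenogenetic or fertilized. The table places 79 rows on chromosome Y, of which 38 had no count in any embryo. These rows summed to 28.1, 9.97 and 13.8 FPKM in control embryos 1, 2 and 3. They summed to 178, 215 and 23.8 FPKM in *CARM1* KD embryos 1, 2 and 3, so that *CARM1* KD embryos 1 and 2 stood apart by this measure. The sum is not split by gene here, and neither sex nor fertilization can be told from it. Since the controls carried no siRNA, the effects of the injection and of the lost *CARM1* cannot be told apart. In whole embryos, fewer cells of a type and less RNA per cell cannot be told apart either.

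Levels are given as the deposited FPKM, that is, the fragments of a gene scaled to the length of its transcripts and to all mapped fragments of the library. Estimated counts summed to between 26341924 and 41727594 per library, and mitochondrially encoded genes held between 14.5% and 46.0% of them, with the highest share in control embryo 2. *CARM1* was at 1.96, 4.54 and 1.26 FPKM in control embryos 1, 2 and 3 and at 0.130, 0.150 and 0.274 FPKM in *CARM1* KD embryos 1, 2 and 3. The groups did not overlap, with a log2 fold change of -3.98 ± 1.02 (SE) and an adjusted p of 0.9999 in edgeR's quasi-likelihood test with Benjamini-Hochberg adjustment over 10639 genes, and -4.18 with an adjusted p of 0.00474 in DESeq2.

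Stage and lineage markers separated the embryos, and they did not follow the labelled groups. Summed over 13 oocyte transcripts such as *BMP15*, *WEE2* and *BTG4*, the level was 4137 FPKM in control embryo 2, 1795 FPKM in *CARM1* KD embryo 3, 748 FPKM in control embryo 1, 303 FPKM in *CARM1* KD embryo 1, 130 FPKM in control embryo 3 and 31.0 FPKM in *CARM1* KD embryo 2. Summed over 10 trophectoderm markers, the level was between 6.63 and 151 FPKM in control embryos and between 49.9 and 359 FPKM in *CARM1* KD embryos, lowest in control embryo 2 within the controls and in *CARM1* KD embryo 3 within the KD embryos. *KRT18*, a keratin of the trophectoderm, had a count of 0 in these same 2 embryos, and *KRT8* was at 0.0484 FPKM in control embryo 2 and at 0 in *CARM1* KD embryo 3. Other genes of the list did not join these 2 embryos. *TFAP2C* was at 0.586 FPKM in control embryo 2 and at 35.1 FPKM in *CARM1* KD embryo 3, and *TEAD4* was at 3.38 FPKM, the lowest, and at 14.5 FPKM, the highest of the 6. *CDX2*, the defining factor of the trophectoderm, was at 0.445 FPKM in control embryo 2, at 0.136 FPKM in *CARM1* KD embryo 2 and at 0 in the other 4. Inner cell mass and pluripotency markers, of which 7 were found, were lowest in control embryo 2 (40.6 FPKM) and highest in *CARM1* KD embryo 3 (125 FPKM). In control embryo 2, *LIN28A* held 33.7 FPKM of this sum, its highest level of the 6 embryos. *KLF4* was at 6.05, *ESRRB* at 0.0875 and *NANOG* at 0 FPKM there. In *CARM1* KD embryo 3, *KLF4* at 62.5 FPKM and *SOX2* at 4.39 FPKM were at their highest. *ESRRB* and *NANOG* were at 30.2 and 2.81 FPKM there, below the 47.0 and 19.4 FPKM of control embryo 3. *POU5F1* and *DPPA3*, also listed, had no row under these names. The 2 embryos of highest oocyte transcripts were left out together in a further comparison of control embryos 1 and 3 with *CARM1* KD embryos 1 and 2.

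Most of the matrix itself was barely read. Of the 74 genes, 19 reached 1 FPKM in at least 2 of the 6 libraries and entered the test, 21 had counts in all 6 libraries and 5 had none in any. The tested genes were 0 of 12 collagens, 4 of 12 laminins, 2 of 18 glycoproteins and proteoglycans, 8 of 19 integrin subunits and 5 of 13 other receptors. Summed over all 12 collagens, the level was 0.660, 1.64 and 0.452 FPKM in control embryos 1, 2 and 3 and 0.696, 2.05 and 1.31 FPKM in *CARM1* KD embryos 1, 2 and 3. The 12 collagens together were therefore below the single integrin gene *ITGA10* in 5 embryos and above it in *CARM1* KD embryo 2 alone. *ITGA10* was at 0.838 FPKM in that embryo. *ITGA10* itself overlaps an unnamed gene on the other strand, at a mean of 6.41 FPKM, so part of its reads may belong to that gene. Just inside the limit were *ITGB4* and *THBS4*, with a second-highest level of 1.28 and 1.39 FPKM, and just outside it were *TNC*, *ITGB5* and *ITGA9*, at 0.952, 0.946 and 0.929 FPKM.

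**Figure D1:**
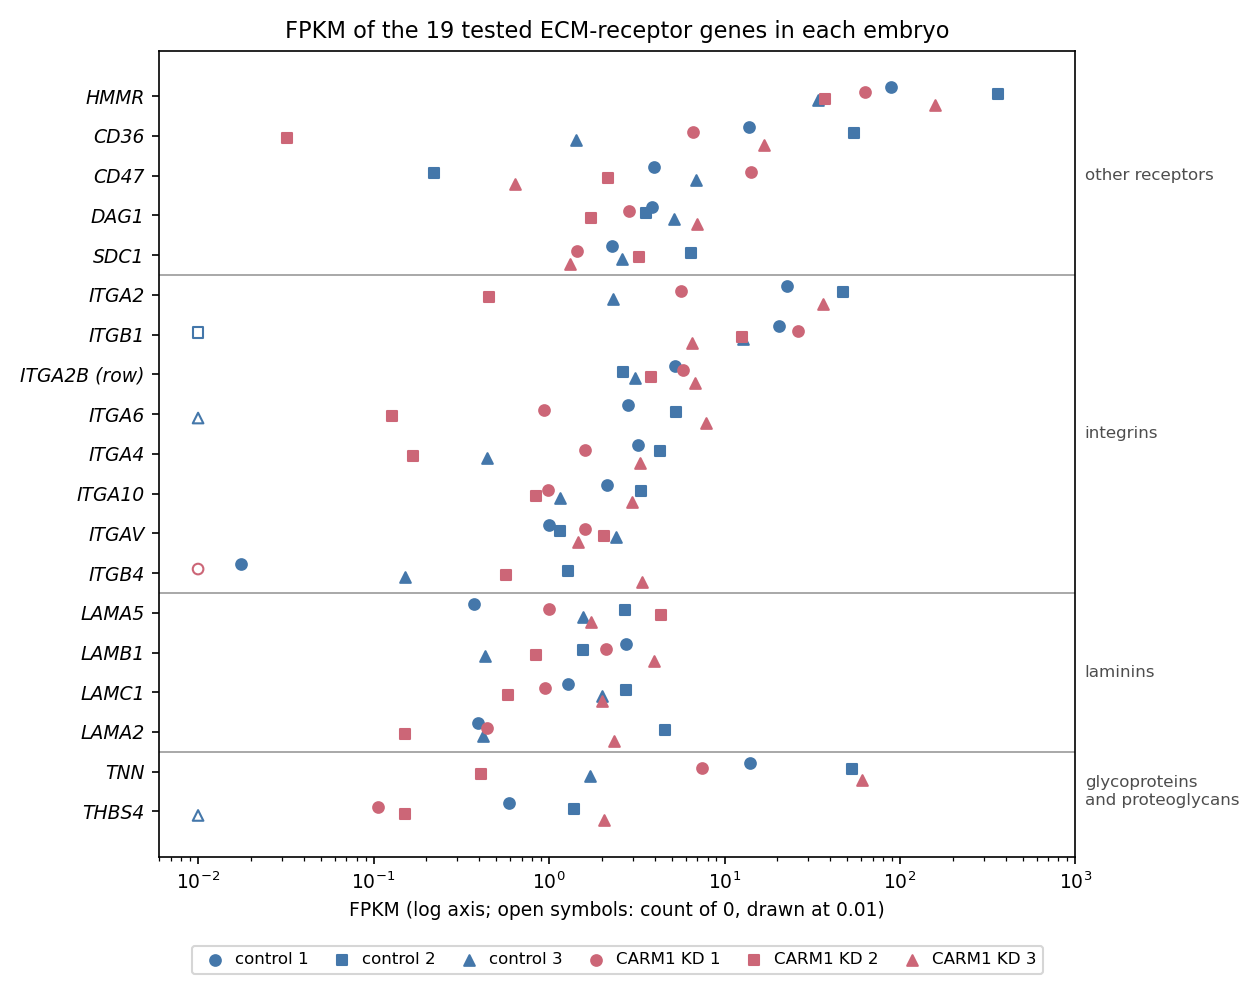
FPKM (log axis) of the 19 tested ECM-receptor genes in each of the 6 embryos, grouped by role; blue symbols are control and red symbols *CARM1* KD embryos, the shape gives the embryo number, and open symbols mark a count of 0. In each gene the 2 colours overlap, and *HMMR* is the highest gene in every embryo.

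No tested ECM-receptor gene passed the test of *CARM1* KD against control embryos. In edgeR's quasi-likelihood test, 0 of 19 passed an adjusted p of 0.05, where 0% of all 10639 tested genes did, and 0 of 19 passed an unadjusted p of 0.05, where 0.686% of all tested genes did. DESeq2 called 0 of 19 at both thresholds, beside 0.113% and 1.81% of all tested genes. The 2 groups of embryos overlapped for each of the 19 genes, while 4.89% of all tested genes had groups that did not overlap. Since all of these shares are small, a count of 0 among 19 genes is not a result about these genes.

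The fitted log2 fold changes (*CARM1* KD against control) were above 0 for 7 and below 0 for 12 of the 19 genes, with a median of -0.37 beside 0.10 for all tested genes, of which 44.7% were below 0. Standard errors were between 0.59 and 2.19 on the log2 scale, so that a change of 2-fold lay within 2 standard errors for each gene. The adjusted p was 0.9999 for all 19 genes in edgeR's quasi-likelihood test. The median was -1.37 without *CARM1* KD embryo 3, -0.85 without control embryo 3 and 0.07 without control embryo 2. Without both embryos of high oocyte transcripts, it was -0.42, and 0 of 19 genes passed an unadjusted p of 0.05, where 1.81% of all tested genes did.

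**Figure D2:**
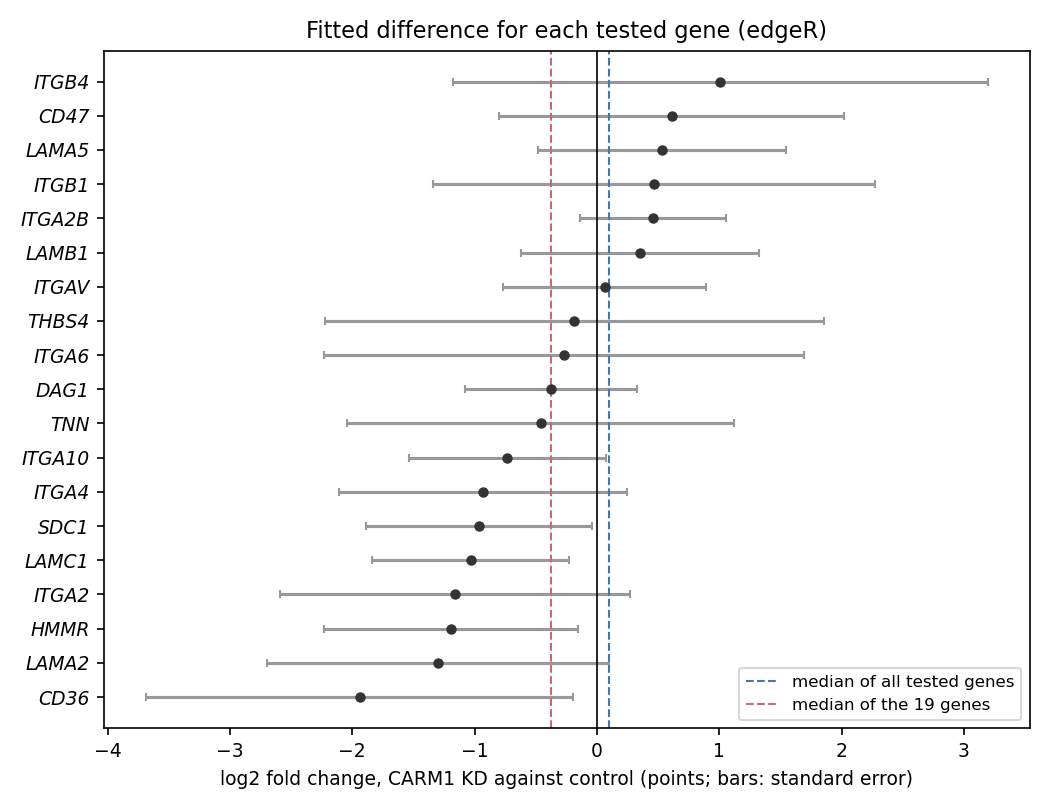
Log2 fold change of each tested ECM-receptor gene, *CARM1* KD against control, from edgeR; points are estimates, bars are 1 standard error, and the dashed lines are the medians of the 19 genes (-0.37) and of all tested genes (0.10). The estimates run from *CD36* at -1.94 to *ITGB4* at 1.01, with bars that are as wide as the estimates for most genes.

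*HMMR* stood far above the other genes. It encodes a receptor for the glycosaminoglycan hyaluronan that is also found on the microtubules of the mitotic spindle (chromosome 16, 60290736 to 60332380, minus strand, in the coordinates of the deposited table, which overlap the same-named RefSeq genes of Sscrofa11.1). Its level was 88.4, 363 and 33.9 FPKM in control embryos 1, 2 and 3 and 63.3, 37.4 and 159 FPKM in *CARM1* KD embryos 1, 2 and 3. The range was 10.7-fold within the controls and 4.25-fold within the KD embryos, with control embryo 2 highest and control embryo 3 lowest of all 6. The means were 162 ± 176 FPKM (SD, n = 3) in controls and 86.5 ± 63.997 FPKM (SD, n = 3) in KD embryos, and the log2 fold change was -1.19 ± 1.04 (SE). Leaving out control embryo 2 turned it to 0.31. Its mean was above that of 95.4% of all tested genes, and *HMMR* alone held between 39.9% and 63.4% of the summed FPKM of the 74 genes. *HMMR* overlaps *NUDCD2* on the other strand, at a mean of 52.4 FPKM, and no source used here says whether reads were counted by strand. Part of the reads may therefore be assigned to either gene. In control embryos 2 and 3 and *CARM1* KD embryo 1, all counts were placed on the transcript of 18 exons, whereas the transcript of 17 exons held 38.3%, 31.4% and 50.4% in control embryo 1 and *CARM1* KD embryos 2 and 3.

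*CD36* and *CD47* bind thrombospondins at the cell surface. *CD36*, a scavenger receptor that also takes up fatty acids (chromosome 9, 99684189 to 99782278), was at 13.7, 54.9 and 1.43 FPKM in control embryos 1, 2 and 3 and at 6.58, 0.0321 and 16.9 FPKM in *CARM1* KD embryos 1, 2 and 3. These levels rest on 11 counts in *CARM1* KD embryo 2 and 13473 in control embryo 2, the lowest and the highest of the 6. Its log2 fold change, -1.94 ± 1.75 (SE), was the lowest of the 19. It was -0.18 without control embryo 2 and -3.07 without *CARM1* KD embryo 3, where *ITGA2* was lower. *CD47*, which also associates with integrins (chromosome 13, 151428728 to 151488543), was at 3.95, 0.222 and 6.87 FPKM in control embryos and at 14.2, 2.17 and 0.643 FPKM in *CARM1* KD embryos. Here the embryos were in another order: control embryo 2 was the lowest and *CARM1* KD embryo 3 the next lowest of all 6. The log2 fold change of *CD47* was 0.61 ± 1.41 (SE), and it lay between -1.36 and 1.56 as 1 embryo at a time was left out.

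*DAG1* and *SDC1*, which encode the laminin receptor dystroglycan and the heparan sulfate proteoglycan syndecan 1, were read in all 6 embryos. *DAG1* was at 3.84, 3.58 and 5.13 FPKM in control embryos 1, 2 and 3 and at 2.86, 1.75 and 6.99 FPKM in *CARM1* KD embryos 1, 2 and 3, a range of 1.43-fold within the controls and 4.004-fold within the KD embryos. *SDC1* was at 2.30, 6.43 and 2.62 FPKM and at 1.45, 3.26 and 1.32 FPKM in the same order. The log2 fold changes were -0.37 ± 0.70 (SE) and -0.96 ± 0.92 (SE). Of the 8 receptors outside the test, *SDC4* reached 0.951 FPKM and the hyaluronan receptor *CD44* 0.769 FPKM, while the platelet genes *GP5* and *GP9* had no count in any library.

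Among the integrins, the common beta subunit and its main alpha partner were highest in different embryos. *ITGB1*, the beta 1 subunit that pairs with most alpha subunits (chromosome 10, 56078401 to 56173135), had estimated counts of 4362, 0 and 1720 in control embryos 1, 2 and 3 and of 5289, 2389 and 1334 in *CARM1* KD embryos 1, 2 and 3. These were 20.6, 0 and 12.8 FPKM and 26.4, 12.6 and 6.49 FPKM. The gene was thus read in 5 embryos and had no count in control embryo 2. That library held 29606920 counts, of which 46.0% were of mitochondrially encoded genes. It also had the fewest genes read, 11173, beside between 13101 and 14822 in the other libraries. In that library, 252 genes had a count of 0 although each of the other 5 embryos held at least 5 FPKM, and *ITGB1* was the only ECM-receptor gene among them. The same measure gave between 0 and 10 genes in the other 5 libraries. The log2 fold change of *ITGB1* was 0.47 ± 1.81 (SE), and -0.13 without control embryo 2.

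*ITGA2*, the alpha 2 subunit of a collagen receptor (chromosome 16, 32336414 to 32433371), showed another order of embryos. It was at 22.7, 47.1 and 2.31 FPKM in control embryos 1, 2 and 3 and at 5.65, 0.458 and 36.6 FPKM in *CARM1* KD embryos 1, 2 and 3. The highest level was in control embryo 2, where *ITGB1* had no count, and the range was 79.9-fold within the KD embryos. The log2 fold change was -1.16 ± 1.43 (SE), with -0.11 without control embryo 2 and -3.16 without *CARM1* KD embryo 3. *ITGA2* overlaps *MOCS2* on the other strand (mean 10.1 FPKM), and no source used here says whether reads were counted by strand.

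Summed over the 12 alpha subunits that pair with beta 1, the level was 33.1, 66.3 and 7.28 FPKM in control embryos 1, 2 and 3 and 11.7, 5.99 and 54.6 FPKM in *CARM1* KD embryos 1, 2 and 3. The alpha subunits were therefore above *ITGB1* by 1.61 times in control embryo 1 and 8.42 times in *CARM1* KD embryo 3, and were at 0.568, 0.446 and 0.477 of it in control embryo 3 and *CARM1* KD embryos 1 and 2. *ITGA2* alone held between 31.8% and 71.0% of this sum in 5 embryos and 7.64% in *CARM1* KD embryo 2. The other 5 beta subunits of the 74 genes together reached between 0.521 and 3.62 FPKM, below *ITGB1* in each of the 5 embryos that held it.

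**Figure D3:**
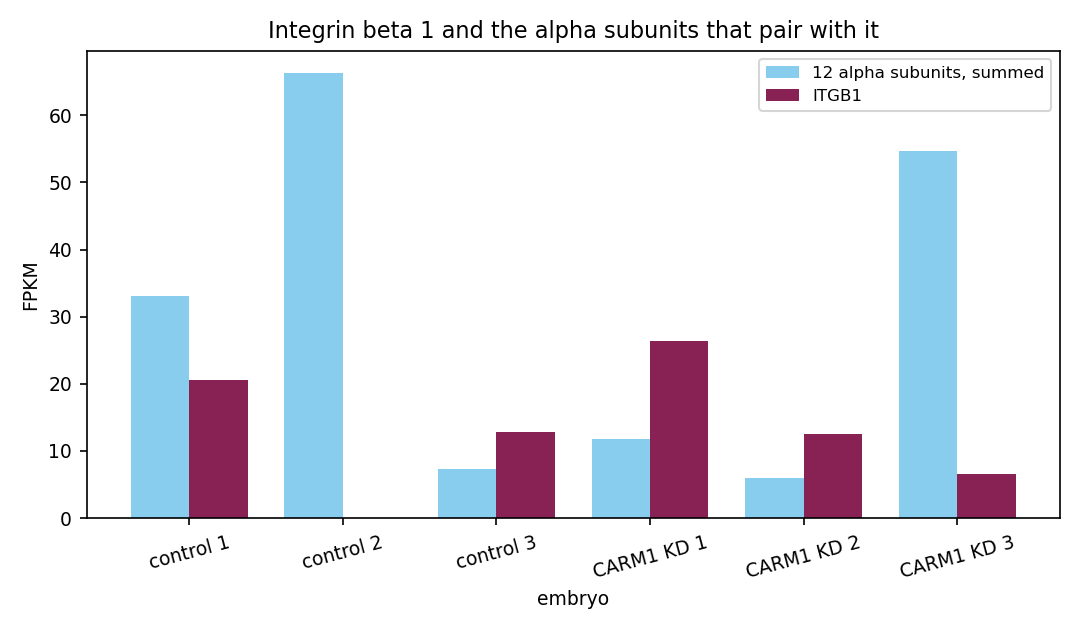
FPKM of *ITGB1* (dark bars) and of the 12 alpha subunits that pair with it, summed (light bars), in each embryo. The alpha subunits reach 66.3 FPKM in control embryo 2, where *ITGB1* is at 0, and 54.6 FPKM in *CARM1* KD embryo 3, and lie below *ITGB1* in control embryo 3 and *CARM1* KD embryos 1 and 2.

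*ITGA6*, the alpha subunit of laminin receptors, was at 2.81, 5.29 and 0 FPKM in control embryos 1, 2 and 3 and at 0.940, 0.127 and 7.85 FPKM in *CARM1* KD embryos 1, 2 and 3. *ITGA4*, whose product pairs with beta 1 to bind fibronectin, was at 3.21, 4.27 and 0.444 FPKM and at 1.60, 0.167 and 3.29 FPKM. *ITGA10*, the alpha subunit of another collagen receptor, was at 2.14, 3.36 and 1.15 FPKM and at 0.991, 0.838 and 2.95 FPKM. All 3 had their 2 highest levels in control embryo 2 and *CARM1* KD embryo 3 and their lowest in *CARM1* KD embryo 2 or control embryo 3. The log2 fold changes were -0.27 ± 1.96 (SE), -0.93 ± 1.18 (SE) and -0.73 ± 0.80 (SE). *ITGA4* overlaps *CERKL* on the other strand (mean 1.49 FPKM), and *ITGA10* overlaps an unnamed gene there (mean 6.41 FPKM). Part of the reads of both may therefore belong to the overlapping gene.

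*ITGAV*, whose product binds vitronectin and fibronectin, was the most even of the integrin genes. It was at 0.997, 1.16 and 2.41 FPKM in control embryos 1, 2 and 3 and at 1.60, 2.05 and 1.46 FPKM in *CARM1* KD embryos 1, 2 and 3, with a log2 fold change of 0.06 ± 0.83 (SE). *ITGB4*, the partner of *ITGA6* in the hemidesmosomes of epithelia, was at 0.0175, 1.28 and 0.151 FPKM and at 0, 0.570 and 3.40 FPKM. It exceeded *ITGAV* in control embryo 2 and *CARM1* KD embryo 3, and its log2 fold change of 1.01 ± 2.19 (SE) had the largest error of the 19. *ITGB4* overlaps *GALK1*, at a mean of 6.41 FPKM.

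The row named *ITGA2B* is not a measure of the platelet integrin subunit alpha IIb. It spans 18776205 to 18877382 on chromosome 12, its description names *GPATCH8*, and the transcripts of 30 and 37 exons that reach the *ITGA2B* part held between 0% and 6.12% of its counts. The remaining transcripts have 5 to 11 exons and end before that part. The row was at 5.24, 2.64 and 3.09 FPKM in control embryos 1, 2 and 3 and at 5.81, 3.83 and 6.79 FPKM in *CARM1* KD embryos 1, 2 and 3. It had the smallest standard error of the 19, with a log2 fold change of 0.46 ± 0.59 (SE).

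The laminins are trimers of an alpha, a beta and a gamma chain, and all 3 kinds were read. *LAMC1*, the gamma 1 chain that most laminins contain, was at 1.29, 2.73 and 2.01 FPKM in control embryos 1, 2 and 3 and at 0.947, 0.585 and 1.99 FPKM in *CARM1* KD embryos 1, 2 and 3. Of the 19 genes it had the smallest unadjusted p, with a log2 fold change of -1.03 ± 0.81 (SE) and an adjusted p of 0.9999 in edgeR's quasi-likelihood test. The groups overlapped, since *CARM1* KD embryo 3 lay above control embryo 1. *LAMB1*, the beta 1 chain, was at 2.76, 1.57 and 0.434 FPKM and at 2.12, 0.841 and 3.99 FPKM, with a log2 fold change of 0.35 ± 0.97 (SE). *LAMA5*, an alpha chain of embryonic basement membranes, was at 0.375, 2.72 and 1.55 FPKM and at 1.002, 4.35 and 1.74 FPKM, and was the only tested gene with its highest level in *CARM1* KD embryo 2. *LAMA2*, an alpha chain best known from muscle, was at 0.396, 4.61 and 0.418 FPKM and at 0.443, 0.151 and 2.34 FPKM. It exceeded 1 FPKM in control embryo 2 and *CARM1* KD embryo 3 alone, with a log2 fold change of -1.30 ± 1.40 (SE), and 0.92 without control embryo 2. For *LAMA5* the log2 fold change was 0.53 ± 1.02 (SE). *LAMA5* overlaps an unnamed gene on the other strand, at a mean of 5.64 FPKM, so part of its reads may belong to that gene.

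The summed levels of the 3 kinds of laminin chain differed by embryo. The 5 alpha chains summed to 2.08, 8.16 and 2.34 FPKM in control embryos 1, 2 and 3 and to 2.62, 4.78 and 5.42 FPKM in *CARM1* KD embryos 1, 2 and 3. The 4 beta chains summed to 3.13, 1.57 and 0.579 FPKM and to 2.60, 0.863 and 5.33 FPKM, and the 3 gamma chains to 1.29, 3.17 and 2.09 FPKM and to 0.989, 0.726 and 2.35 FPKM. In *CARM1* KD embryo 2 the alpha chains, mostly *LAMA5*, were well above the beta and gamma chains, whereas in *CARM1* KD embryo 3 the alpha and beta chains were at nearly the same level. *LAMA1*, a chain of the early basement membrane in the mouse, was read in all 6 embryos but stayed at or below 0.292 FPKM.

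Of the matrix glycoproteins, only 2 entered the test. *TNN*, which encodes tenascin N (chromosome 9, 117174743 to 117244391), was at 14.1, 53.4 and 1.70 FPKM in control embryos 1, 2 and 3 and at 7.47, 0.408 and 60.5 FPKM in *CARM1* KD embryos 1, 2 and 3. The range was 148-fold within the KD embryos and 31.4-fold within the controls, with group means of 22.8 ± 32.8 FPKM (SD, n = 3) and 23.1 ± 27.0 FPKM (SD, n = 3). Its log2 fold change was -0.46 ± 1.58 (SE), and 1.22 without control embryo 2. *THBS4*, a thrombospondin, was at 0.594, 1.39 and 0 FPKM and at 0.106, 0.151 and 2.05 FPKM, with a log2 fold change of -0.18 ± 2.04 (SE). *TNN* was the second gene after *HMMR* in mean FPKM, and was the highest of the genes for secreted matrix proteins.

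Several matrix and receptor genes outside the test were highest in single embryos. *FN1*, which encodes fibronectin, was at 1.60 FPKM in control embryo 2 and 0.415 FPKM in *CARM1* KD embryo 2 and had no count in the other 4. *HSPG2*, which encodes the basement membrane proteoglycan perlecan, was at 2.61 FPKM in *CARM1* KD embryo 2 and at most at 0.403 FPKM elsewhere. *TNC*, the tenascin C gene, was at 1.32, 0 and 0.952 FPKM in control embryos 1, 2 and 3 and at 0.882, 0.780 and 0.301 FPKM in *CARM1* KD embryos 1, 2 and 3. *TNC* was therefore read in each embryo but control embryo 2, where *TNN* was at 53.4 FPKM. *ITGA11*, a collagen receptor subunit, reached 3.46 FPKM in control embryo 2, the highest level of any gene outside the test.

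Among the collagens, 3 genes had counts in 1 group of embryos and none in the other, 2 of them with at least 50 counts in all and *COL4A4* with 10 counts in control embryo 1. *COL4A3*, a type IV collagen chain of specialized basement membranes, had counts of 8, 212 and 0 in control embryos 1, 2 and 3 and of 0 in each *CARM1* KD embryo. Against a floor of 3 counts over the 3 KD embryos, it was at least 87.1-fold lower there, and 212 of the 220 counts came from control embryo 2. Without the filter on low values, it was the only 1 of 69 genes with an unadjusted p below 0.05, where 1.35% of all genes passed, and its adjusted p was 0.99997 in edgeR's quasi-likelihood test. *COL9A2*, a collagen of cartilage, had a count of 0 in each control embryo and counts of 38, 50 and 0 in *CARM1* KD embryos 1, 2 and 3, and was at least 24.7-fold higher in KD embryos against the same floor. In all, 7 of the 74 genes had counts in control embryos alone and 7 in KD embryos alone, and 11 genes were read in a single library. The same shares over all genes were not counted, so these numbers are not a result about these genes. *COL4A2*, a type IV chain of most basement membranes, was at 0.216, 0 and 0 FPKM and at 0.295, 0.636 and 0.0466 FPKM. No row was named *COL4A1*, another type IV chain, so its level is not known here.

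The levels of these genes differed widely between embryos of 1 group. For 10 of the 19 tested genes the 2 highest levels were in control embryo 2 and *CARM1* KD embryo 3, which was so for 24.1% of all tested genes. Control embryo 2 had the highest level of 8 of the 19 genes, beside 18.8% of all tested genes, and *CARM1* KD embryo 3 that of 7 of the 19, beside 26.7%. Control embryo 2 was the lowest of the 6 for 3 of the 19 genes, *ITGB1*, *CD47* and the *ITGA2B* row, while it was the lowest for 42.1% of all tested genes. The lowest level was in *CARM1* KD embryo 2 for 8 of the 19, beside 19.3% of all tested genes. The ECM-receptor genes took 0.298% of all counts in control embryo 2 and 0.197% in *CARM1* KD embryo 3, and between 0.0521% and 0.110% in the other 4.

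Much of this was carried by a few genes. *HMMR*, *ITGA2*, *CD36* and *TNN* together held 70.9%, 90.5% and 46.3% of the summed FPKM of the 74 genes in control embryos 1, 2 and 3 and 55.1%, 46.0% and 81.5% in *CARM1* KD embryos 1, 2 and 3. The sum over all 74 genes was 196, 573 and 85.0 FPKM in controls, and it was 151, 83.2 and 335 FPKM in KD embryos. Without these 4 genes it was 57.1, 54.6 and 45.6 FPKM and 67.6, 44.9 and 62.1 FPKM. Thus, the summed level of the other genes lay between 44.9 and 67.6 FPKM in all 6 embryos. This sum joins genes of opposite order, so the pattern was not confined to the 4 genes. *ITGB1* and *CD47* were lowest in control embryo 2 and next lowest in *CARM1* KD embryo 3. *ITGA4*, *ITGA6*, *ITGA10*, *ITGB4*, *LAMA2* and *THBS4* had their 2 highest levels in these embryos.

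The order of the embryos was the same as that of the summed oocyte transcripts for *CD36*, *ITGA2* and *ITGA4*, from control embryo 2 as the highest to *CARM1* KD embryo 2 as the lowest. This order was seen in 3 of 19 genes and in 4.03% of all tested genes. Within both groups the order was that of the oocyte transcripts for 7 of 19 genes, beside 15.4% of all tested genes, the other 4 being *HMMR*, *ITGA10*, *ITGA6* and *TNN*. It was reversed within both groups for 0 of 19 genes, beside 5.99%. For 11 tested oocyte transcripts themselves the order within groups was kept by 10, since the list sets this order. The order was noticed after the values were seen, and it is given as a description with no test. The part that oocyte transcripts, or the lower trophectoderm markers of control embryo 2 and *CARM1* KD embryo 3, play in the levels of these genes was not tested, nor was that of the markers of other cells given next.

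**Figure D4:**
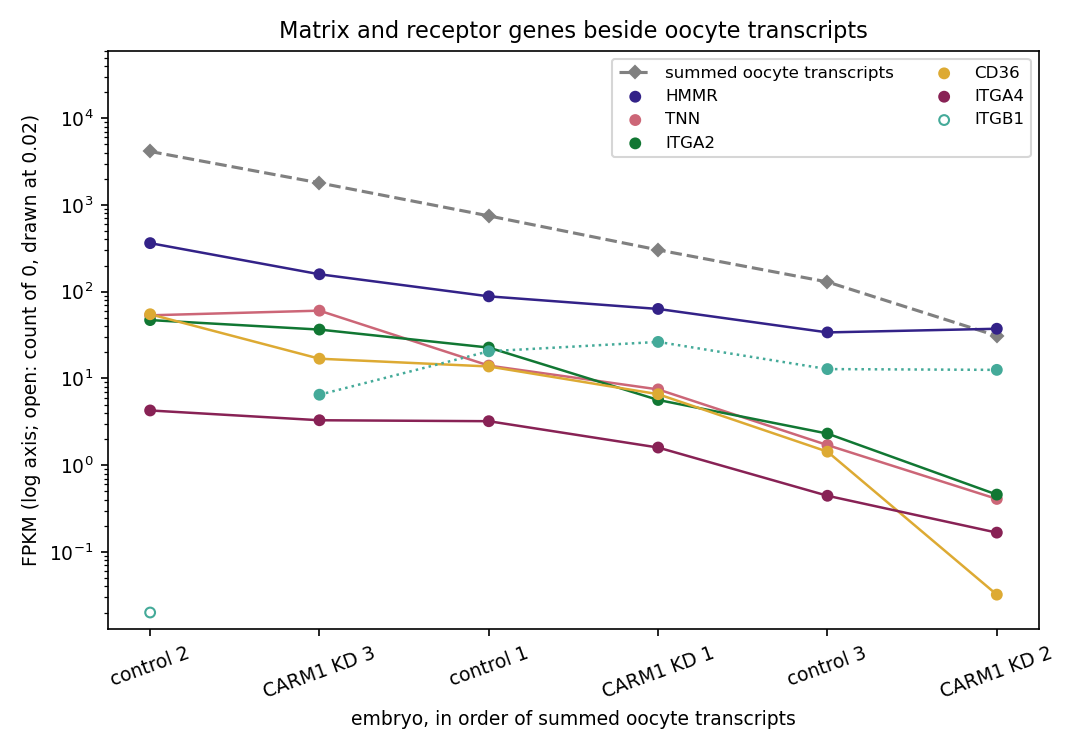
FPKM (log axis) of 6 ECM-receptor genes and of 13 summed oocyte transcripts (dashed grey) in the 6 embryos, ordered by the latter; the open symbol marks a count of 0. *CD36*, *ITGA2* and *ITGA4* descend in the same order as the oocyte transcripts, *HMMR* and *TNN* do so within each group, and *ITGB1* (dotted) does not.

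Markers of other cells were read at low or moderate levels. Of 11 cumulus and granulosa genes, 7 had no count in any library, among them *FSHR*, and the sum was between 1.53 and 7.09 FPKM in control and between 1.16 and 4.002 FPKM in *CARM1* KD embryos. It was highest in control embryo 2 and next in *CARM1* KD embryo 3, where *VCAN*, itself a matrix proteoglycan, made up 7.09 and 3.67 FPKM. Fibroblast markers, 11 genes of which 2 are collagens described here, summed to between 0.988 and 6.61 FPKM in controls. In KD embryos they summed to between 1.10 and 12.5 FPKM. Single genes made up most of the highest sums, *THY1* with 5.04 FPKM in control embryo 3 and *TWIST2* with 10.8 FPKM in *CARM1* KD embryo 2. *LUM*, *PDGFRB* and *POSTN* were at or below 0.177 FPKM in each embryo. Of blood, platelet and immune markers, 10 rows summed to 14.95, 23.8 and 13.4 FPKM in control embryos 1, 2 and 3 and to 18.9, 10.6 and 16.9 FPKM in *CARM1* KD embryos 1, 2 and 3, including the row named *ITGA2B*. The sum was highest in control embryo 2, with *SPI1* at 14.02 FPKM and *CD14* at 6.92 FPKM there. Each of these was above the trophectoderm sum of 6.63 FPKM in that embryo. Other genes of the list did not share this. *CD68*, *LYZ*, *PTPRC*, *HBB* and *PPBP* were at 0 there, and *CD68* was highest in *CARM1* KD embryo 1 (8.59 FPKM). Of 10 primitive endoderm markers, the defining factor *SOX17* had no count in any embryo, and *GATA6* was at 17.7, 0 and 20.5 FPKM in control and at 12.7, 50.5 and 22.8 FPKM in *CARM1* KD embryos. *GATA4*, of the same list, was at 1.65, 9.13 and 0.780 FPKM in control and at 1.17, 2.92 and 9.91 FPKM in *CARM1* KD embryos, highest in control embryo 2 and *CARM1* KD embryo 3. Of this list, 3 genes are described here, *LAMB1*, *LAMA1* and *COL4A2*.

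The enzymes and partners of the matrix were described from a list of 32 genes, of which 15 were tested. Of these, 7 had a log2 fold change above and 8 below 0, with a median of -0.26, and 0 passed an unadjusted p of 0.05 in edgeR's quasi-likelihood test, beside 0.686% of all tested genes. *P4HB*, the protein disulfide isomerase subunit of collagen prolyl hydroxylase, was at 5.50, 1.35 and 11.2 FPKM in control embryos 1, 2 and 3 and at 6.44, 15.8 and 11.4 FPKM in *CARM1* KD embryos 1, 2 and 3. *COLGALT2*, a collagen galactosyltransferase, was at 3.20, 9.03 and 0.239 FPKM and at 0.623, 0.262 and 9.09 FPKM, which was again highest in control embryo 2 and *CARM1* KD embryo 3. *PLOD2*, a lysyl hydroxylase, was at 4.33, 6.55 and 0.839 FPKM and at 1.82, 0.826 and 3.25 FPKM, and the metalloproteinase inhibitor *TIMP2* at 6.16, 1.22 and 6.78 FPKM and at 7.93, 7.43 and 9.32 FPKM. *TIMP2* was higher in each KD embryo than in each control embryo, the only gene of the list of which this was so, beside 3.82% of all tested genes. *SPARC*, a matrix protein of the parietal endoderm in the mouse, had no count in any library.

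Of 33 table rows of listed integrin adaptor and signalling genes, 25 were tested, with the 2 rows of *CRK* counted separately. Of these, 18 had a log2 fold change above and 7 below 0, with a median of 0.37. In edgeR's quasi-likelihood test, 0 passed an unadjusted p of 0.05, beside 0.686% of all tested genes. *CD9*, a tetraspanin that associates with integrins, was at 203, 0.777 and 370 FPKM in control embryos 1, 2 and 3 and at 206, 160 and 129 FPKM in *CARM1* KD embryos 1, 2 and 3. *RAP1B*, a small GTPase that activates integrins, was at 151, 42.2 and 173 FPKM and at 218, 63.5 and 103 FPKM, and *CIB1*, a calcium-binding partner of integrin tails, at 64.7, 4.59 and 138 FPKM and at 101, 114 and 62.8 FPKM. All 3 were lowest in control embryo 2, which was the lowest embryo for 15 of the 25 adaptors and for 3 of the 19 ECM-receptor genes, beside 42.1% of all tested genes. *CRK*, an adaptor of focal adhesions, was at 48.5, 80.8 and 56.4 FPKM and at 42.9, 33.6 and 108 FPKM in the higher of its 2 table rows. The 2 highest levels of this row were in control embryo 2 and *CARM1* KD embryo 3. The other row was at 5.43, 3.02 and 6.20 FPKM and at 6.19, 13.7 and 5.04 FPKM. It was lowest in control embryo 2 and next lowest in *CARM1* KD embryo 3. *ILK*, which encodes integrin-linked kinase, was at 3.62, 0.619 and 4.56 FPKM and at 4.83, 10.3 and 6.30 FPKM, and its partner *LIMS1* at 0.652, 0.472 and 0.751 FPKM and at 1.36, 1.13 and 1.58 FPKM, the 2 of 25 adaptors of which every KD embryo lay above every control embryo, beside 3.82% of all tested genes. The 2 lists share no gene, and the difference between them was not tested.

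Several tested genes were read as 1 transcript. *ITGA4*, *ITGA10*, *LAMA2*, *LAMC1* and *SDC1* had 100% of their counts on a single transcript in each embryo, and *ITGAV* had between 88.7% and 100% on one of 30 exons. *TNN* had between 67.1% and 100% on a transcript of 21 exons. For *ITGB1*, the transcript of 16 exons and 3855 bases held between 93.0% and 100% in the 5 embryos with counts. *CD36* held between 83.6% and 100% on a transcript of 15 exons and 6096 bases in 5 embryos, and 30.7% in control embryo 3, where 69.3% of 319 counts were on a transcript of 16 exons. *CD47* and *DAG1* were split among 6 and 9 annotated transcripts with no common leading one. For *DAG1*, the transcript with the most counts held 100% in control embryo 1, 78.7% in control embryo 2 and 87.3% in control embryo 3, and it was a different one in each. These shares rest on estimated counts, in which reads shared by transcripts are divided by the counting tool.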

How the data were processed

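RNA was measured in 3 control and 3 *CARM1* KD embryos, grouped by their labels. For 24358 genes and 47421 transcripts, the authors deposited estimated counts and FPKM. RNA was extracted with the RNeasy Mini Kit, cDNA was pre-amplified, and TruSeq Nano libraries were read on an Illumina HiSeq. The paper names the pig reference genome and Cufflinks. The submitters' processing notes name HISAT2, StringTie, fastp, HOMER, ChIPseeker, edgeR and a human build, GRCh38.p10. The sources used here do not say which tool gave the values. Of the 74 genes, 73 had a RefSeq gene of the same symbol in Sscrofa11.1, and all 73 overlapped it. The deposited FPKM of 0.0001 at a count of 0 was read as 0. Of the 74 genes, 7 carried only an identifier and were named from an Ensembl name table (4) or their description (3). No sample column was left unused (0). The summed level of the primitive endoderm markers is not reported here.

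Estimated counts were rounded to whole numbers. Genes that reached 1 FPKM in at least 2 libraries entered edgeR's quasi-likelihood test (TMM scaling, Benjamini-Hochberg adjustment over 10639 genes, 4 residual degrees of freedom, common biological coefficient of variation 1.12). The standard error was calculated as the size of the log2 fold change over the square root of the test's F statistic, not taken from the fit. Since each library is a separate embryo, the errors include differences between embryos. Cufflinks' test was not run. The script was also run on simulated counts with 200 changed genes, and how many of these it recovered is not given here. A fold against a group at 0 used a floor of 3 counts summed over its libraries and reflects counting error alone.

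Named were *CARM1*, the 6 tested genes (or fewer) with the highest mean FPKM per role, the 12 with the smallest p, genes at 0 in 1 group with at least 50 counts in the other, and the 4 tested genes with the highest mean FPKM per list of partners. *ITGAV* and the genes outside the test were named after their values were seen, as were *ILK*, *LIMS1*, *COL4A4* and the lineage markers. The genes, their roles and all lists were chosen with earlier results of these data known. Transcript shares are given for genes with at least 50 counts in at least 4 libraries.

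The alternatives were other scalings, filters, pseudocounts and tools, mitochondrially encoded genes left out, a replicate block, each library left out, and control embryos 1 and 3 against *CARM1* KD embryos 1 and 2. In a further setting, chosen after the data were seen, the row named *ITGA2B* was left out, which gave a median of -0.417. All other medians of the ECM-receptor genes include this row. The fits were run in R 4.3.3 with DESeq2 1.42.0, limma 3.58.1 and edgeR 4.0.16, and summaries and plots in Python 3.11.15 with matplotlib 3.10.9, pandas 2.3.3 and numpy 2.4.6.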

Additional observations from a re-analysis of the deposited data

How the results depend on the processing

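Over 16 alternatives, 0 of the 19 tested ECM-receptor genes passed an adjusted p of 0.05. The log2 fold change kept its sign in every setting for 7 of 19 genes, and 28 of 301 values had the other sign. Over all genes, DESeq2 called 12 at an adjusted p of 0.05 where edgeR called 0 (73 at an unadjusted p), and its value for *CARM1* was -4.18. With no filter on low values, 1 ECM-receptor gene passed an unadjusted p of 0.05, *COL4A3* at -9.69 ± 3.68 (SE). When 1 FPKM was required in 3 libraries, 16 of the genes were tested. The cause of these differences was not tested.

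The median of the ECM-receptor genes was between -1.37 and 0.068 as 1 embryo at a time was left out, and the median of all genes moved between -0.02 and 0.34 over the settings. In the same fits, the log2 fold change of *CARM1* was between -4.30 and -3.25, *CD47* between -1.36 and 1.56, *HMMR* between -1.87 and 0.31, *ITGA6* between -2.50 and 0.79, *ITGAV* between -0.24 and 0.61, *ITGB1* between -0.19 and 1.13, and *ITGB4* between -0.91 and 3.51. *LAMA2* was between -2.84 and 0.92, *LAMA5* between -0.52 and 1.21, *LAMB1* between -0.13 and 0.90, *THBS4* between -2.41 and 1.08, and *TNN* between -2.78 and 1.22. Without a change of sign, *CD36* was between -3.07 and -0.18, *ITGA2* between -3.16 and -0.11, *ITGA4* between -1.72 and -0.31, *ITGA10* between -1.37 and -0.25, *DAG1* between -0.92 and -0.10, *SDC1* between -1.70 and -0.32, *LAMC1* between -1.50 and -0.72 and the *ITGA2B* row between 0.29 and 0.71. Other values that changed sign were *ITGA6* at 0.086 in limma on log2(FPKM + 0.1), *THBS4* at 0.036 there and at 0.0097 in limma on log2(FPKM + 1), and *ITGAV* at -0.0236 with DESeq2, -0.0239 with its size factors in edgeR and -0.0857 with upper-quartile factors. *SDC1* was at 0.045 in control embryos 1 and 3 against *CARM1* KD embryos 1 and 2.

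Embryos of the same replicate number were compared by their deviations from the group means. These correlated at 0.18, -0.47 and -0.50 for embryos 1, 2 and 3, and between -0.35 and 0.54 for embryos of different numbers. With 3 embryos per group, these values cannot decide whether the numbers pair the embryos. With the replicate block, 16 genes had an unadjusted p below 0.05 beside 73 without it, 0 passed the adjusted threshold, the median of the ECM-receptor genes was -0.57, and *ITGB4* was at -0.56.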
